A study of Mus musculus with 54 samples.

Results

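The nuclear lamina is a meshwork of A-type and B-type lamins under the inner nuclear membrane. Proteins with a LEM domain, of which emerin is 1, join it to chromatin through the small DNA-binding protein encoded by *Banf1*. The genes followed here are *Lmna*, *Lmnb1*, *Lmnb2*, *Lbr*, *Lemd2*, *Lemd3*, *Tmpo*, *Ankle2*, *Banf1* and *Tor1aip1*. They were picked by name as lamina and LEM-domain genes and were looked up in each of the 27 deposited tables. They are 10 of the 19651 genes with solved counts, and all 10 were among the 14653 genes tested.

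The cells were H2K mouse myogenic progenitors of 6 lines, sampled on days 0, 1 and 2 of differentiation. The lines were wildtype, EMD -/y without emerin, and EMD -/y cells given wildtype emerin (+EMD), S54F, Δ95–99 or Q133H emerin by lentivirus. Each transduced protein was represented by 1 line, selected with puromycin at a dose that was not the same for each line. Puromycin stayed in the media of the transduced lines, +EMD included, as they were expanded. Wildtype and EMD -/y progenitors were seeded at 232000 cells per well and mutant lines at 297000, while for +EMD no density was given for the RNA wells. Wildtype and EMD -/y shared a density and were not transduced, so a difference between these 2 cannot be told apart from a difference between clones. A difference of a transduced line from either cannot be told apart from one in clone, selection, medium or density or, for Q133H, in the amount of emerin. Proliferation medium held γ-interferon at 20 units per mL. Day 0 progenitors had spent a night densely plated in this medium. The later days followed the change to differentiation medium with 5% horse serum, for which no γ-interferon was listed. The same step brought a higher temperature and less carbon dioxide. A change from day 0 to a later day therefore cannot be told apart from an effect of temperature, carbon dioxide, serum or interferon.

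Poly-A RNA was read as 100-base pairs, with 3 libraries in each of the 18 groups. The sources give 3 technical replicates of each biological replicate (n = 2), so the spread between libraries may hold technical variation only, and the p-values may be too small. The closest pair of libraries in a group lay at a median chi-square per gene of 0.71 to 1.74, where sampling noise alone gives 0.455, and the other pairs at 1.64 to 10.9. Any 3 libraries have a closest pair. In 15 of 18 groups the next pair lay at least 2 times as far apart, but not in S54F on day 1 (0.915 and 1.64), S54F on day 2 (1.64 and 1.72) or Δ95–99 on day 2 (1.74 and 3.06), so there the choice of pair is less certain. The libraries are named a, b and c within a group by depth and held 16364283 to 19451713 counts each. These letters are not the replicate numbers of the labels.

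*Emd* itself was read first. Wildtype libraries held 1810, 1826 and 2052 normalized counts on day 0, 1834, 1779 and 1611 on day 1 and 1222, 1145 and 1150 on day 2. All 45 libraries of the other 5 lines held 0 to 3. The loss in EMD -/y was therefore plain in every library. No mouse *Emd* counts came back in +EMD or in the mutant lines, so these counts do not show the transduced transcript and cannot tell the transduced lines apart.

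Most markers of the labelled cell type were present in every group. The 6 myogenic progenitor markers summed to group means of 25026 to 146824 normalized counts, lowest in Q133H on day 1. The 7 differentiation markers ran from 8466 in Q133H on day 1 to 751666 in wildtype on day 2. In Q133H only 5 of the 6 progenitor markers reached a mean of 10, on each day. *Pax7* ranged from 2.22 in Q133H on day 0 to 2113 in +EMD on day 0. Fibroblast markers summed to 319 to 4901, with *Ly6a* the most abundant in each group (307 of 380 in wildtype on day 2, 4827 of 4901 on day 0), while adipocyte markers reached at most 10.1, endothelial 50.9, blood 25.5 and Schwann cell markers 25.6. Fewer cells of a type and less RNA per cell cannot be told apart in such counts.

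A-type lamins are made in most differentiated cells, B-type lamins in nearly all cells. The lamin B receptor, lamina-associated polypeptide 2 from *Tmpo* and the *Lemd2*, *Lemd3* and *Ankle2* products anchor heterochromatin or help rebuild the envelope after mitosis. *Tor1aip1* makes a membrane protein that binds lamins.

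Levels are normalized counts, that is, counts divided by a size factor for each library. Changes are log2, and a gene was called at an adjusted p under 0.05 in limma with Benjamini-Hochberg adjustment over all genes of the comparison. Calls were repeated without each library, with counts scaled by their total (total-count scaling), with only the libraries of the comparison (own-group fit), and with the closest 2 libraries of each group averaged into 1 (closest-2 fit, chosen after seeing the data). Total-count scaling moved the median change of all genes most in S54F from day 1 to day 2, from 0.02 to −0.28, and in Q133H against wildtype on day 2, from 0.01 to 0.28. A call that ended in 1 of these, or without 1 library, is given with at least 1 fit that ended it, though not always with all. The own-group fit ended 46 of 243 calls.

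Per kb of transcript *Lmna* was the most abundant of the 10 genes, at a mean of 7790 over the 18 groups. *Tmpo* (1959) and *Banf1* (1942) followed, then *Lmnb2* (731), *Lmnb1* (679), *Tor1aip1* (542), *Lbr* (356), *Lemd2* (231), *Ankle2* (190) and *Lemd3* (96.2). *Lmnb1* ranged most between groups, 12.7-fold, and *Lemd3* least, 1.39-fold. Between these lay *Lmnb2* (6.82-fold), *Lbr* (4.69), *Banf1* (2.63), *Tmpo* (2.53), *Lmna* (2.23), *Ankle2* (1.73), *Tor1aip1* (1.66) and *Lemd2* (1.65).

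**Figure D1:**
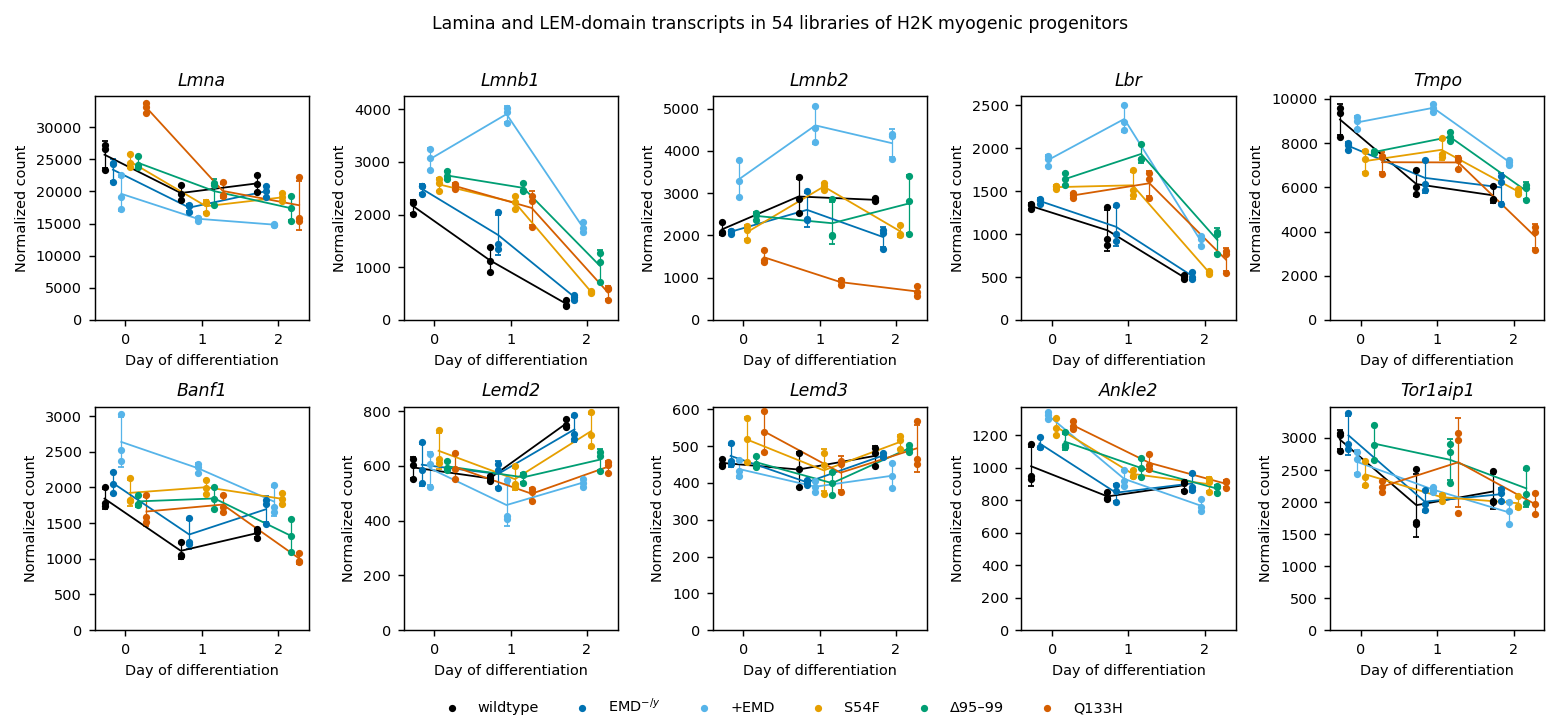
Normalized counts of the 10 lamina and LEM-domain genes in every library, by line and day of differentiation.

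*Lmna* encodes the A-type lamins, and its level was highest in day 0 progenitors. The Q133H line stood above the rest on day 0, and +EMD stood at the bottom on days 1 and 2. *Lmna* means on day 0 were 25728 (SD 2097) for wildtype, 23396 (SD 1708) for EMD -/y, 19639 (SD 2682) for +EMD, 24697 (SD 1074) for S54F, 24462 (SD 935) for Δ95–99 and 33045 (SD 771) for Q133H. Those of day 1 were 19761 (SD 1168) for wildtype, 17493 (SD 585) for EMD -/y, 15757 (SD 292) for +EMD, 17705 (SD 937) for S54F, 20051 (SD 1898) for Δ95–99 and 20084 (SD 1155) for Q133H. Those of day 2 were 21263 (SD 1315) for wildtype, 20027 (SD 828) for EMD -/y, 14841 (SD 122) for +EMD, 19090 (SD 619) for S54F, 17403 (SD 1901) for Δ95–99 and 17858 (SD 3844) for Q133H. Ordered by level, 15 of 17 neighbouring groups overlapped, and the 3 libraries of Q133H on day 0 lay above every other library. *Lmna* fell from day 0 to day 1 in every line, by −0.38 in wildtype, −0.42 in EMD -/y, −0.31 in +EMD, −0.48 in S54F, −0.29 in Δ95–99 and −0.72 in Q133H. The +EMD call ended without +EMD b (−0.21) and the Δ95–99 call without Δ95–99 a (−0.21). In the closest-2 fit the wildtype (−0.32), +EMD (−0.26) and Δ95–99 (−0.35) calls ended, and in the own-group fit the +EMD call did (adjusted p 0.0581). From day 1 to day 2 *Lmna* was not called in any line, although total-count scaling called it in +EMD (−0.34), Δ95–99 (−0.33) and Q133H (−0.25).

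*Lmnb1*, a B-type lamin gene, fell as the progenitors differentiated. In wildtype and EMD -/y progenitors it fell in both intervals. In the +EMD and mutant lines no fall was called by day 1, and it fell between days 1 and 2. *Lmnb1* means on day 0 were 2158 (SD 128) for wildtype, 2491 (SD 84.2) for EMD -/y, 3055 (SD 202) for +EMD, 2576 (SD 121) for S54F, 2743 (SD 77.6) for Δ95–99 and 2542 (SD 57.4) for Q133H. Those of day 1 were 1134 (SD 236) for wildtype, 1613 (SD 380) for EMD -/y, 3908 (SD 147) for +EMD, 2228 (SD 122) for S54F, 2507 (SD 84) for Δ95–99 and 2127 (SD 320) for Q133H. Those of day 2 were 309 (SD 53.9) for wildtype, 435 (SD 44.3) for EMD -/y, 1760 (SD 95.2) for +EMD, 531 (SD 15.2) for S54F, 1033 (SD 287) for Δ95–99 and 521 (SD 128) for Q133H. The 3 highest groups were +EMD on day 1, +EMD on day 0 and Δ95–99 on day 0, the lowest was wildtype on day 2, and 12 of 17 neighbours overlapped. From day 0 to day 1 *Lmnb1* fell by −0.95 in wildtype and −0.65 in EMD -/y, the latter not called in the closest-2 fit (−0.54). It was not called in +EMD (0.36, adjusted p 0.0547), S54F (−0.21), Δ95–99 (−0.13) or Q133H (−0.27). Between days 1 and 2 it fell by −1.87 in wildtype, −1.87 in EMD -/y, −1.15 in +EMD, −2.07 in S54F, −1.32 in Δ95–99 and −2.05 in Q133H. These 6 calls held in every fit.

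*Lmnb2*, the other B-type lamin gene, did not follow *Lmnb1*. It was high in +EMD on all days and low in Q133H on all days. *Lmnb2* means on day 0 were 2147 (SD 140) for wildtype, 2087 (SD 42.7) for EMD -/y, 3332 (SD 442) for +EMD, 2084 (SD 173) for S54F, 2464 (SD 89) for Δ95–99 and 1482 (SD 146) for Q133H. Those of day 1 were 2923 (SD 424) for wildtype, 2606 (SD 395) for EMD -/y, 4606 (SD 435) for +EMD, 3157 (SD 74.8) for S54F, 2290 (SD 502) for Δ95–99 and 895 (SD 67.5) for Q133H. Those of day 2 were 2843 (SD 31.5) for wildtype, 1961 (SD 237) for EMD -/y, 4186 (SD 324) for +EMD, 2100 (SD 132) for S54F, 2755 (SD 688) for Δ95–99 and 675 (SD 119) for Q133H. The 3 Q133H groups were the lowest of 18 and overlapped neither each other nor the rest, the 3 +EMD groups were the highest, and 13 of 17 neighbours overlapped. Between days 0 and 1 it rose by 0.44 in wildtype, 0.47 in +EMD and 0.60 in S54F and fell by −0.72 in Q133H. The wildtype call ended without day 1 a (0.33) and in the closest-2 fit (0.47), where the +EMD call ended as well (0.46). From day 1 to day 2 it fell by −0.41 in EMD -/y, −0.59 in S54F and −0.42 in Q133H. The EMD -/y call ended without EMD -/y day 1 a (−0.28) or EMD -/y day 2 b (−0.30), and the Q133H call without Q133H day 1 b (−0.38) or Q133H day 2 c (−0.30), in the own-group fit (adjusted p 0.0956) and in the closest-2 fit (−0.32). Total-count scaling added +EMD (−0.39).

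*Lbr* encodes the lamin B receptor, which tethers heterochromatin and also acts in sterol synthesis. Its fall came between day 1 and day 2 in every line. *Lbr* means on day 0 were 1325 (SD 31.6) for wildtype, 1386 (SD 31.3) for EMD -/y, 1861 (SD 63.7) for +EMD, 1546 (SD 21.4) for S54F, 1639 (SD 70.3) for Δ95–99 and 1450 (SD 26.5) for Q133H. Those of day 1 were 1043 (SD 239) for wildtype, 1085 (SD 225) for EMD -/y, 2340 (SD 147) for +EMD, 1568 (SD 155) for S54F, 1932 (SD 106) for Δ95–99 and 1592 (SD 148) for Q133H. Those of day 2 were 498 (SD 24.9) for wildtype, 512 (SD 43.9) for EMD -/y, 924 (SD 56.8) for +EMD, 555 (SD 16) for S54F, 931 (SD 146) for Δ95–99 and 704 (SD 137) for Q133H. All 6 groups of day 2 lay at the bottom of the order, +EMD on day 1 was highest, and 11 of 17 neighbours overlapped. Between days 1 and 2 *Lbr* fell by −1.04 in wildtype, −1.07 in EMD -/y, −1.34 in +EMD, −1.49 in S54F, −1.06 in Δ95–99 and −1.19 in Q133H. Every fit kept these 6 calls. From day 0 to day 1 it fell by −0.37 in wildtype and −0.37 in EMD -/y and rose by 0.33 in +EMD. The wildtype call ended without wildtype b (−0.31) or wildtype c (−0.25), the EMD -/y call without EMD -/y c (−0.26) and the +EMD call without +EMD day 0 a (0.30) or +EMD day 1 c (0.28). All 3 ended in the closest-2 fit (−0.28, −0.28 and 0.35), and the first 2 in the own-group fit (adjusted p 0.0959 and 0.0735).

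*Tmpo* encodes lamina-associated polypeptide 2, a LEM-domain protein with membrane and nucleoplasmic forms. Wildtype progenitors lowered it on the first day, the mutant and +EMD lines on the second. *Tmpo* means on day 0 were 9063 (SD 706) for wildtype, 7874 (SD 175) for EMD -/y, 8932 (SD 277) for +EMD, 7187 (SD 506) for S54F, 7592 (SD 58.2) for Δ95–99 and 7135 (SD 463) for Q133H. Those of day 1 were 6147 (SD 555) for wildtype, 6428 (SD 701) for EMD -/y, 9595 (SD 188) for +EMD, 7696 (SD 457) for S54F, 8281 (SD 202) for Δ95–99 and 7125 (SD 278) for Q133H. Those of day 2 were 5639 (SD 356) for wildtype, 5996 (SD 670) for EMD -/y, 7138 (SD 102) for +EMD, 5816 (SD 120) for S54F, 5838 (SD 381) for Δ95–99 and 3794 (SD 547) for Q133H. The highest group was +EMD on day 1 and the lowest Q133H on day 2, whose libraries lay below all others, and 14 of 17 neighbours overlapped. *Tmpo* fell from day 0 to day 1 by −0.56 in wildtype and −0.30 in EMD -/y, the latter not called in the closest-2 fit (−0.25). From day 1 to day 2 it fell by −0.43 in +EMD, −0.40 in S54F, −0.51 in Δ95–99 and −0.92 in Q133H. Total-count scaling alone called this interval in wildtype and EMD -/y (−0.35 and −0.38).

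*Lemd2* and *Lemd3* encode LEM-domain proteins of the inner nuclear membrane. Both varied little. *Lemd2* rose on the second day in 5 of the 6 lines, and *Lemd3* ranged less than any other member. *Lemd2* means on day 0 were 594 (SD 38.7) for wildtype, 604 (SD 76.1) for EMD -/y, 591 (SD 62) for +EMD, 655 (SD 65) for S54F, 599 (SD 17.7) for Δ95–99 and 596 (SD 48.9) for Q133H. The day 1 means were 554 (SD 8.63) for wildtype, 571 (SD 46) for EMD -/y, 457 (SD 78.2) for +EMD, 551 (SD 40.4) for S54F, 558 (SD 16.9) for Δ95–99 and 498 (SD 22.6) for Q133H. The day 2 means were 755 (SD 13.7) for wildtype, 734 (SD 45.5) for EMD -/y, 539 (SD 15.3) for +EMD, 727 (SD 62.5) for S54F, 623 (SD 37.8) for Δ95–99 and 597 (SD 21.9) for Q133H. Wildtype on day 2 was the highest group and +EMD on day 1 the lowest, with 16 of 17 neighbours overlapping. *Lemd2* rose from day 1 to day 2 by 0.44 in wildtype, 0.36 in EMD -/y and 0.40 in S54F. With total-count scaling only the wildtype call stayed, and EMD -/y and S54F both gave 0.09. The rises in +EMD (0.25) and Q133H (0.26) ended with total-count scaling (0.00 and 0.20) and in the closest-2 fit (0.18 and 0.26). The Q133H call also ended without Q133H day 1 c (0.22) or Q133H day 2 a (0.24), and the +EMD call without day 1 a (0.19), day 1 b (0.17) or day 2 b (0.23), while without day 1 c it was 0.39. Between days 0 and 1 *Lemd2* fell by −0.38 in +EMD, which ended in the own-group fit (adjusted p 0.0756). Falls in S54F (−0.25) and Q133H (−0.26) ended without S54F day 0 c (−0.17), S54F day 1 a (−0.22) or S54F day 1 b (−0.21), and without Q133H day 0 c (−0.19) or Q133H day 1 c (−0.22), and both in the closest-2 fit (−0.30 and −0.27).

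*Lemd3* means on day 0 were 454 (SD 10.4) for wildtype, 473 (SD 30) for EMD -/y, 438 (SD 22.9) for +EMD, 517 (SD 60.2) for S54F, 456 (SD 15.4) for Δ95–99 and 540 (SD 56.2) for Q133H. The day 1 means were 436 (SD 46.9) for wildtype, 402 (SD 7.72) for EMD -/y, 390 (SD 14) for +EMD, 434 (SD 56.8) for S54F, 399 (SD 31.2) for Δ95–99 and 428 (SD 47.1) for Q133H. The day 2 means were 473 (SD 25.9) for wildtype, 475 (SD 5.67) for EMD -/y, 419 (SD 35.3) for +EMD, 512 (SD 18.1) for S54F, 493 (SD 8.6) for Δ95–99 and 494 (SD 63.5) for Q133H. Of neighbours in the order 16 of 17 overlapped, from Q133H on day 0 down to +EMD on day 1. Its calls between days were small and unsteady. *Lemd3* fell from day 0 to day 1 by −0.23 in EMD -/y, −0.25 in S54F and −0.34 in Q133H, calls that ended without EMD -/y day 0 a (−0.18), EMD -/y day 1 a (−0.24), EMD -/y day 1 b (−0.22) or EMD -/y day 1 c (−0.25), without S54F day 0 a (−0.25), S54F day 0 c (−0.17) or S54F day 1 b (−0.15), and without Q133H c (−0.24). The EMD -/y call also ended in the closest-2 fit (−0.22), the other 2 in the own-group fit (adjusted p 0.159 and 0.0822). Between days 1 and 2 it rose by 0.24 in EMD -/y, 0.24 in S54F and 0.31 in Δ95–99. The first 2 turned to −0.03 and −0.06 with total-count scaling, and ended without EMD -/y day 1 a (0.24), EMD -/y day 1 b (0.23), EMD -/y day 2 a (0.25) or EMD -/y day 2 c (0.23), and without S54F day 1 b (0.14), S54F day 2 b (0.22) or S54F day 2 c (0.24). The EMD -/y call also ended in the closest-2 fit (0.24). The Δ95–99 call ended with total-count scaling (0.18) and without Δ95–99 b (0.25).

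*Ankle2* encodes a LEM-domain protein that helps rejoin chromatin and envelope after mitosis. Its level was highest on day 0 in each line and fell on the first day. *Ankle2* means on day 0 were 1009 (SD 119) for wildtype, 1150 (SD 35.1) for EMD -/y, 1323 (SD 22.3) for +EMD, 1251 (SD 50.3) for S54F, 1161 (SD 48.5) for Δ95–99 and 1261 (SD 23.5) for Q133H. The day 1 means were 824 (SD 23.3) for wildtype, 846 (SD 53.6) for EMD -/y, 931 (SD 52.3) for +EMD, 962 (SD 22.7) for S54F, 998 (SD 58.1) for Δ95–99 and 1030 (SD 48.9) for Q133H. The day 2 means were 892 (SD 31.3) for wildtype, 904 (SD 54.7) for EMD -/y, 767 (SD 36.9) for +EMD, 899 (SD 42) for S54F, 871 (SD 21.7) for Δ95–99 and 901 (SD 22.1) for Q133H. From +EMD on day 0 down to +EMD on day 2, 15 of 17 neighbours overlapped. *Ankle2* fell from day 0 to day 1 by −0.29 in wildtype, −0.44 in EMD -/y, −0.51 in +EMD, −0.38 in S54F, −0.22 in Δ95–99 and −0.29 in Q133H. It fell again by −0.28 in +EMD from day 1 to day 2. Falls of −0.19 in Δ95–99 and −0.19 in Q133H ended without Δ95–99 b (−0.15) and without Q133H b (−0.15), and both in the closest-2 fit (−0.17 and −0.17).

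*Banf1* encodes the protein that bridges DNA and LEM domains. In wildtype and EMD -/y progenitors it dropped on the first day, while +EMD, Δ95–99 and Q133H dropped it on the second. *Banf1* means on day 0 were 1843 (SD 142) for wildtype, 2061 (SD 152) for EMD -/y, 2638 (SD 348) for +EMD, 1923 (SD 182) for S54F, 1804 (SD 78.4) for Δ95–99 and 1663 (SD 203) for Q133H. The day 1 means were 1112 (SD 108) for wildtype, 1341 (SD 206) for EMD -/y, 2271 (SD 64.6) for +EMD, 2003 (SD 93.9) for S54F, 1846 (SD 152) for Δ95–99 and 1760 (SD 118) for Q133H. The day 2 means were 1360 (SD 60.1) for wildtype, 1693 (SD 184) for EMD -/y, 1803 (SD 200) for +EMD, 1840 (SD 75.5) for S54F, 1323 (SD 235) for Δ95–99 and 1005 (SD 72.1) for Q133H. The order ran from +EMD on day 0 to Q133H on day 2, with 15 of 17 neighbours overlapping. *Banf1* fell from day 0 to day 1 by −0.73 in wildtype and −0.63 in EMD -/y. Between days 1 and 2 it fell by −0.34 in +EMD, −0.49 in Δ95–99 and −0.81 in Q133H, and the +EMD call ended without +EMD c (−0.28). In wildtype and EMD -/y it rose by 0.29 and 0.34, calls that ended with total-count scaling (0.06 and 0.07), in the closest-2 fit (0.27 and 0.23), and without wildtype day 1 b (0.25), wildtype day 1 c (0.26) or wildtype day 2 b (0.27), and without EMD -/y b (0.27).

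*Tor1aip1* encodes lamina-associated polypeptide 1, which activates the torsin ATPase. Wildtype and EMD -/y progenitors lowered it on the first day of differentiation. *Tor1aip1* means on day 0 were 2974 (SD 151) for wildtype, 3042 (SD 307) for EMD -/y, 2629 (SD 178) for +EMD, 2433 (SD 194) for S54F, 2914 (SD 274) for Δ95–99 and 2239 (SD 83.8) for Q133H. The day 1 means were 1951 (SD 492) for wildtype, 2006 (SD 159) for EMD -/y, 2194 (SD 36.1) for +EMD, 2077 (SD 48.5) for S54F, 2660 (SD 320) for Δ95–99 and 2622 (SD 694) for Q133H. The day 2 means were 2163 (SD 275) for wildtype, 2123 (SD 98.5) for EMD -/y, 1836 (SD 175) for +EMD, 1982 (SD 96.4) for S54F, 2214 (SD 290) for Δ95–99 and 1970 (SD 162) for Q133H. All 17 pairs of neighbours overlapped, from EMD -/y on day 0 down to +EMD on day 2. *Tor1aip1* fell from day 0 to day 1 by −0.64 in wildtype and −0.60 in EMD -/y. It fell from day 1 to day 2 by −0.38 in Q133H, where day 1 library a held 1823 against 3072 and 2970 in b and c. That call became −0.62 without day 1 a and ended without day 1 b (−0.24), day 1 c (−0.27) or day 2 a (−0.32) and in the closest-2 fit (−0.29).

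EMD -/y progenitors differed from wildtype in *Ankle2* on day 0, in *Lmnb1* on days 1 and 2, and in *Lmnb2* and *Banf1* on day 2. Most of these calls were small, and none of them stood in the closest-2 fit. On day 0, 1 of 10 members was called (21.1% of all genes), on day 1 1 (16.5%) and on day 2 3 (20.6%), shares near those of all genes. On day 1 the *Lmnb1* counts were 1380, 1113 and 910 in wildtype and 2050, 1433 and 1356 in EMD -/y, and on day 2 271, 370 and 284 and 441, 388 and 476. EMD -/y libraries were higher, with overlap on day 1 and none on day 2. *Lmnb1* was higher by 0.50 on day 1 (adjusted p 0.0212) and 0.50 on day 2 (0.018). The day 1 call ended without EMD -/y a (0.32), wildtype b (0.50) or wildtype c (0.36) and the day 2 call without EMD -/y a (0.49), EMD -/y c (0.44), wildtype a (0.42) or wildtype c (0.45). Both ended in the own-group fit (adjusted p 0.19 and 0.0638), the day 2 call also with voom weights, and both in the closest-2 fit (0.52 and 0.39).

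*Lmnb2* counts on day 2 were 2813, 2842 and 2876 in wildtype and 2062, 1690 and 2131 in EMD -/y. All 3 EMD -/y libraries lay lower, without overlap. *Lmnb2* was lower by −0.54 (adjusted p 0.00336), or −0.59 with adjusted p 0.0554 in the closest-2 fit. *Banf1* on day 2 was higher by 0.31, which ended without EMD -/y a (0.28), EMD -/y c (0.25), wildtype a (0.28), wildtype b (0.34) or wildtype c (0.32), with total-count scaling (0.26), in the own-group fit (adjusted p 0.0614) and in the closest-2 fit (0.25). *Ankle2* on day 0 was higher by 0.19, which ended without EMD -/y c (0.17), wildtype a (0.15) or wildtype b (0.14), in the own-group fit (adjusted p 0.225) and in the closest-2 fit (0.14). *Lmna*, *Lbr*, *Lemd2*, *Lemd3*, *Tmpo* and *Tor1aip1* were not called on any day. The median member change was 0.04, 0.05 and 0.01 on the 3 days, beside 0.00, 0.01 and 0.00 over all genes.

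Among related genes, the EMD -/y line kept high *Wfs1* (1.64, 1.11 and 0.92 on days 0, 1 and 2) and *Tor1aip2* (0.38, 0.34 and 0.43). Of 14 cycling cell genes 12 were higher on day 2 (median 1.15) and 0 were called on days 0 and 1 by limma with Benjamini-Hochberg adjustment. Of 10 lamina-associated chromatin genes 1 was higher and 2 lower on day 2, of 13 lamina disassembly and reassembly genes 3 and 1, of 5 lamin processing genes 0 and 1. Of 11 other LEM-domain and inner nuclear membrane genes 3 were higher and 1 lower, and of 6 muscle-enriched envelope genes 1 and 0. In that comparison 20.6% of all genes were called, and whether these 5 lists differ from that share was not tested.

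The line given wildtype emerin differed from wildtype progenitors far more. +EMD progenitors held more *Lmnb1*, *Lmnb2*, *Lbr* and *Banf1* on every day and less *Lmna*. *Lmnb1* and *Lbr* differed most once differentiation had started. On day 0, 6 of 10 members were called, 5 higher and 1 lower (50.2% of all genes). On day 1 it was 8, 6 higher and 2 lower (56.5%), and on day 2 8, 5 and 3 (53.0%). *Lmnb1* counts in +EMD were 2844, 3246 and 3075 on day 0, 3743, 4026 and 3954 on day 1 and 1748, 1861 and 1672 on day 2, against 2245, 2217 and 2011, 1380, 1113 and 910 and 271, 370 and 284 in wildtype. +EMD lay above wildtype in every library of each day. *Lmnb1* was higher by 0.50, 1.80 and 2.52 (adjusted p 0.00746, 1.72e-12 and 9.15e-17), and the day 0 call ended in the closest-2 fit (0.53, adjusted p 0.0671).

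*Lbr* counts in +EMD were 1790, 1913 and 1879 on day 0, 2211, 2307 and 2501 on day 1 and 862, 939 and 972 on day 2, against 1289, 1341 and 1346, 1316, 942 and 872 and 507, 518 and 471 in wildtype. No +EMD library fell into the wildtype range of its day. *Lbr* was higher by 0.49, 1.19 and 0.89, *Lmnb2* by 0.63, 0.66 and 0.55, and *Banf1* by 0.51, 1.03 and 0.40, the last not called in the closest-2 fit (0.36). *Lmna* was lower by −0.40, −0.33 and −0.52. *Tmpo* was higher on day 1 (0.65) and day 2 (0.34). *Ankle2* was higher on day 0 (0.40) and lower on day 2 (−0.22), and its day 1 call (0.18) ended without +EMD c (0.13) and in the closest-2 fit (0.19). *Lemd2* was lower on day 2 (−0.48), and its day 1 call (−0.29) ended without +EMD a (−0.23) or +EMD b (−0.21) and in the closest-2 fit (−0.22). *Lemd3* and *Tor1aip1* were not called.

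On day 2 all 14 cycling cell genes were higher in +EMD (median 3.55), with *Mki67* at 5.19 and *Ccna2* at 4.48, after 13 on day 1 (median 1.01), beside 53.0% and 56.5% of all genes called. The chromatin genes *Suv39h1* (1.06 and 1.27 on days 1 and 2) and *Cbx3* (0.80 and 0.93) were higher. *Zmpste24*, which encodes the protease that trims prelamin A, was lower on each day (−0.45, −0.39 and −0.57). *Plpp7* was the muscle-enriched envelope gene with the largest difference on day 1 (−2.91), when the differentiation markers summed to 75977 against 198434 in wildtype. *Tmem43* was lower on the 3 days (−0.49, −0.50 and −0.82), and *Ankle1* was higher on day 2 (3.89).

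S54F progenitors held more *Lmnb1*, *Lbr*, *Tmpo*, *Ankle2* and *Banf1* than wildtype on day 1. Fewer differences stood on days 0 and 2. On day 0, 2 members were called (34.1% of all genes), on day 1 5, all higher (38.7%), and on day 2 3 (32.8%). *Lmnb1* counts in S54F were 2235, 2347 and 2103 on day 1 and 530, 547 and 516 on day 2, each library above the wildtype ones of its day. *Lmnb1* was higher by 0.99 and 0.79 (adjusted p 3.19e-06 and 0.000116). *Banf1* counts were 1998, 1912 and 2100 in S54F and 1236, 1041 and 1058 in wildtype on day 1, again without overlap, a difference of 0.85 (adjusted p 6.00e-08). *Lbr* was higher by 0.61 on day 1. *Ankle2* was higher by 0.32 on day 0, though not called in the own-group fit (adjusted p 0.0619).

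Other S54F calls ended in the closest-2 fit, which gave *Tmpo* −0.33 on day 0 in place of −0.33 and 0.32 on day 1 in place of 0.33. There *Ankle2* on day 1 was 0.21 in place of 0.22, *Lmnb2* on day 2 −0.45 in place of −0.44, and *Banf1* on day 2 0.41 in place of 0.44. The own-group fit added *Lmnb1*, *Lbr* and *Tor1aip1* on day 0. Among related genes, S54F had high *Wfs1* on day 0 (1.75) and low *Nemp1* on day 2 (−0.82). *Rce1*, a lamin processing gene, was higher on day 1 (0.59). Of the 14 cycling cell genes 6 were higher on day 1, near the share of all genes called (38.7%), and 10 on day 2 (median 1.11), where 32.8% of all genes were called.

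In Δ95–99 progenitors *Lmnb1* and *Lbr* were higher than in wildtype on days 1 and 2, though both fell between these days. *Tmpo*, *Ankle2* and *Banf1* were higher on day 1. Day 0 differed little. On day 0, 3 members were called (33.8% of all genes), on day 1 7 (56.6%), and on day 2 4 (59.4%). *Lmnb1* counts were 2603, 2473 and 2446 on day 1 and 716, 1106 and 1276 on day 2, and *Lbr* counts 2054, 1871 and 1872 and 763, 1006 and 1023. Both genes lay above wildtype in each library, and *Lmnb1* on day 2 varied between 716 and 1276. *Lmnb1* was higher by 1.16 and 1.71 (adjusted p 6.13e-08 and 5.55e-12), *Lbr* by 0.91 and 0.89 (5.31e-08 and 7.14e-08). On day 1 *Banf1* was higher by 0.73, *Tmpo* by 0.43 and *Ankle2* by 0.28. *Tor1aip1* was higher by 0.47, or 0.32 and not called in the closest-2 fit, nor in the own-group fit (adjusted p 0.0789).

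The other Δ95–99 calls were unsteady. *Lmnb2* on day 1 (−0.36) ended without Δ95–99 b (−0.28), Δ95–99 c (−0.27) or wildtype a (−0.25), with total-count scaling (−0.25), in the own-group fit (adjusted p 0.13) and in the closest-2 fit (−0.33). On day 2 *Lmna* (−0.29) and *Lemd2* (−0.28) ended with total-count scaling (−0.07 and −0.06), in the closest-2 fit (−0.28 and −0.28) and without Δ95–99 b (−0.21 and −0.23). On day 0 *Lbr* (0.31), *Tmpo* (−0.25) and *Ankle2* (0.21) ended in the closest-2 fit (0.32, −0.22 and 0.18). *Lbr* also ended without Δ95–99 a (0.31), Δ95–99 b (0.34), Δ95–99 c (0.27), wildtype a (0.29), wildtype b (0.31) or wildtype c (0.32), *Tmpo* without wildtype a (−0.23) or wildtype b (−0.21) and with total-count scaling (−0.19), and *Ankle2* without wildtype a (0.17) or wildtype b (0.15) and in the own-group fit (adjusted p 0.153).

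All 14 cycling cell genes were higher in Δ95–99 on day 2 (median 3.34), *Mki67* by 4.99 and *Ccna2* by 4.38, where 59.4% of all genes were called. On day 1, 5 of 6 muscle-enriched envelope genes were lower (median −1.80), beside 56.6% of all genes called, *Plpp7* by −4.58 and *Klhl31* by −2.73. Differentiation markers summed to 22872 in Δ95–99 and 198434 in wildtype on that day, and their part in these differences was not tested. *Rb1* was lower (−1.22) and *Suv39h2* higher (1.13) on day 1. *Rce1* was higher on day 1 (0.84), *Sun1* was lower (−0.62), and *Ankle1* was higher on day 2 (4.18).

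Q133H was the line in which *Lmnb2* was lowest. Its *Lmna* was high on day 0, and *Lmnb1* and *Lbr* were high on days 1 and 2. By day 2 *Tmpo* and *Lemd2* were lower than in wildtype. On day 0, 6 members were called, 3 higher and 3 lower (39.5% of all genes), on day 1 7, 6 and 1 (60.4%), and on day 2 7, 2 and 5 (70.5%). *Lmnb2* counts in Q133H were 1381, 1416 and 1648 on day 0, 819, 945 and 923 on day 1 and 804, 652 and 569 on day 2, against 2073, 2059 and 2308, 3377, 2538 and 2852 and 2813, 2842 and 2876 in wildtype. Every Q133H library lay below every wildtype one. *Lmnb2* was lower by −0.54, −1.70 and −2.09 (adjusted p 0.00192, 2.01e-13 and 3.45e-16), the last a 4.25-fold difference. The day 0 call ended in the closest-2 fit (−0.52).

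*Lmna* counts on day 0 were 32221, 33168 and 33748 in Q133H and 27285, 26554 and 23343 in wildtype. The Q133H libraries lay higher without overlap, a difference of 0.36 (adjusted p 0.00238). On day 2 *Lmna* was lower by −0.27, but 0.00 with total-count scaling, where the direction was lost. That call became −0.44 without Q133H a and ended without Q133H b (−0.19), Q133H c (−0.18) or wildtype b (−0.23), and in the closest-2 fit (−0.21). *Lmnb1* was higher by 0.92 on day 1 and 0.73 on day 2, and *Lbr* by 0.63 and 0.48, the last not called in the closest-2 fit (0.38). *Ankle2* was higher on days 0 and 1 (0.33 and 0.32), and *Banf1* on day 1 (0.66).

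*Tmpo* in Q133H was lower on day 0 (−0.34) and day 2 (−0.58), with day 2 counts of 3176, 4214 and 3994 against 5450, 6050 and 5418 in wildtype. Its day 1 call (0.22) ended without Q133H b (0.20), Q133H c (0.20), wildtype b (0.20) or wildtype c (0.16), in the own-group fit (adjusted p 0.0593) and in the closest-2 fit (0.16). *Lemd2* and *Banf1* were lower on day 2 (−0.34 and −0.44), though not called with total-count scaling (−0.07 and −0.17). *Lemd3* on day 0 (0.24) ended without Q133H a (0.17), Q133H c (0.24), wildtype a (0.23), wildtype b (0.24) or wildtype c (0.26), and in the closest-2 fit (0.23). *Tor1aip1* was lower on day 0 (−0.41), which ended without Q133H a (−0.38) and in the closest-2 fit (−0.39). On day 1 it was higher (0.42), at 0.66 without Q133H a, and that call ended without Q133H b (0.28), Q133H c (0.31), wildtype b (0.31) or wildtype c (0.32), in the own-group fit (adjusted p 0.22) and in the closest-2 fit (0.20).

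All 6 muscle-enriched envelope genes were lower in Q133H on day 1 (median −2.50) and day 2 (median −1.52), *Plpp7* by −5.58 and −3.82 and *Klhl31* by −4.34 and −2.94, where 60.4% and 70.5% of all genes were called. Differentiation markers summed to 8466 in Q133H on day 1, against 198434 in wildtype, and *Pax7* was nearly absent on day 0 (2.22). *Rb1* was lower on day 1 (−1.74), and *Suv39h1* was higher on days 1 and 2 (1.07 and 1.38). All 10 chromatin genes were called on day 2, 6 higher and 4 lower, where 70.5% of all genes were called. *Lpin1*, whose product acts on envelope lipids, was higher on day 2 (2.30), *Nrm* was lower (−2.12) and *Icmt* was higher (0.68). The 14 cycling cell genes were all higher on day 2 (median 2.59).

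The Q133H libraries of day 2 differed widely among themselves. Library a lay at a median chi-square of 9.65 and 10.9 from b and c, which lay at 1.19 from each other. Differentiation markers of this group summed to 35646 to 215923 (mean 99094, SD 101302) and cycling cell genes to 10532 to 23790. The part of this spread in the day 2 differences of Q133H was not tested beyond the fits without 1 library.

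**Figure D2:**
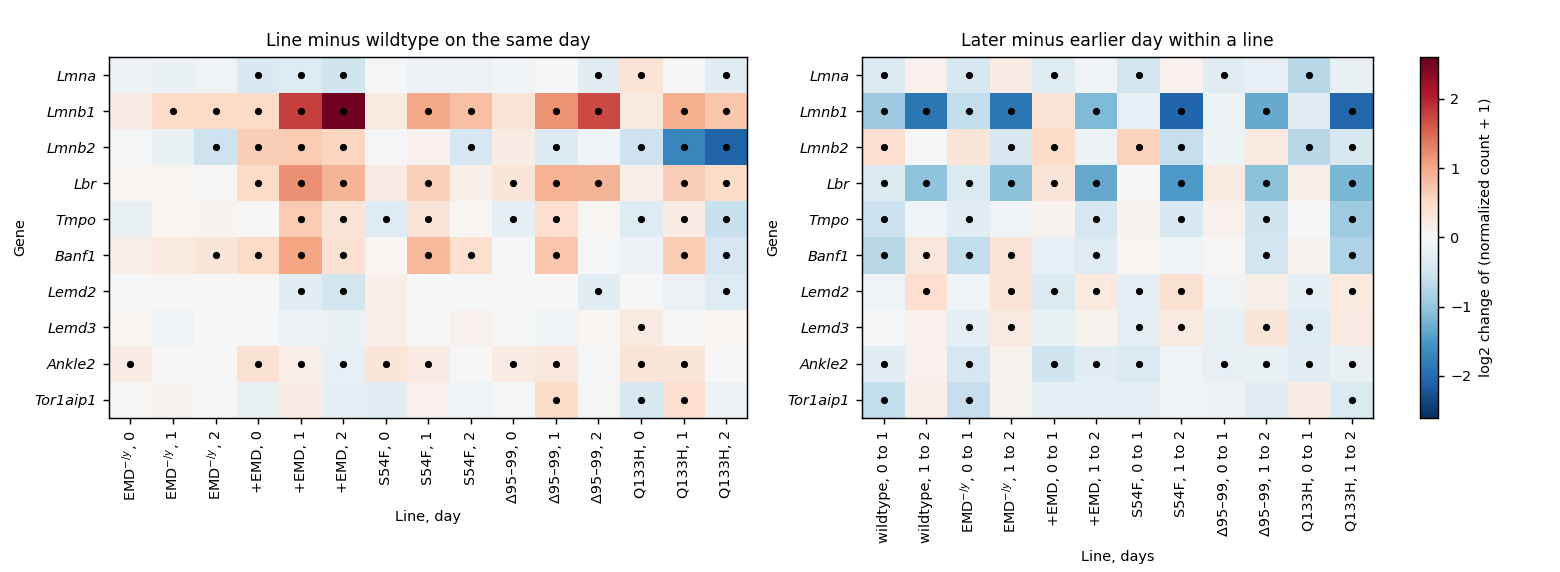
Log2 change of each of the 10 genes in every line against same-day wildtype, and from each day to the next within every line.

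Set side by side, the 5 lines share the wildtype libraries, so these values are not independent of each other. *Lmnb1* was called higher on days 1 and 2 in all 5, though in EMD -/y neither call stood in the own-group or closest-2 fit. *Ankle2* was called higher on day 0 in all 5, but the own-group fit ended this call in EMD -/y, S54F and Δ95–99, and the closest-2 fit in EMD -/y and Δ95–99. *Lbr* and *Banf1* on day 1 were called higher in all lines but EMD -/y. *Lmnb2* was called higher only in +EMD, and lower on all 3 days only in Q133H. Over these 15 comparisons 71 of 150 member results were called, 49 higher and 22 lower, 54 in every fit without 1 library and 43 in the closest-2 fit. In the same comparisons 16.5% to 70.5% of all genes were called, so the total is not a result about the members.

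Summed counts of proliferation genes were set beside these differences. The 14 cycling cell genes summed to 71232, 37282 and 6682 normalized counts in wildtype on days 0, 1 and 2 and to 63573, 38519 and 8595 in EMD -/y. In +EMD the sums were 79236, 81817 and 32124, in S54F 63861, 53007 and 8326, in Δ95–99 72370, 70864 and 30140, and in Q133H 64645, 61910 and 19014. The lines with the most *Lmnb1* and *Lbr* on day 2, +EMD and Δ95–99, thus also held the highest sums. On the same day Q133H summed to 19014 (10532 to 23790 between libraries) and S54F to 8326, with similar *Lmnb1* means (521 and 531). The sums of that day lean on *Rrm2*, which held 3133 of 6682 in wildtype, 2460 of 8595 in EMD -/y and 2358 of 8326 in S54F. On day 0 the sums of EMD -/y, S54F and Q133H lay below that of wildtype, while *Ankle2* was called higher in each. The own-group fit ended that call in EMD -/y and S54F. The part of dividing cells in the *Lmnb1* and *Lbr* differences was not tested.

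From day 0 to day 1 most members fell in progenitors without a transgene. *Lmna* and *Ankle2* fell in every line. In the transduced lines no fall of *Lmnb1*, *Tmpo*, *Banf1* or *Tor1aip1* was called. In this interval 8 of 10 members were called in wildtype (60.8% of all genes), 8 in EMD -/y (59.4%), 5 in +EMD (51.8%), 5 in S54F (50.6%), 2 in Δ95–99 (46.0%) and 5 in Q133H (42.6%). The median member change was −0.37 in wildtype and −0.39 in EMD -/y, beside −0.02 and 0.00 over all genes. In +EMD, S54F, Δ95–99 and Q133H it was −0.19, −0.22, −0.13 and −0.26. Cycling cell genes fell in wildtype (13 of 14, median −1.01) and EMD -/y (13 of 14, median −0.82). Muscle-enriched envelope genes rose in wildtype (6 of 6, median 2.02) and fell in Q133H (4 of 6, median −0.49).

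From day 1 to day 2 *Lmnb1* and *Lbr* fell in all 6 lines. Falls of *Tmpo* were called in +EMD, S54F, Δ95–99 and Q133H, and falls of *Banf1* in +EMD, Δ95–99 and Q133H. With total-count scaling *Tmpo* was called in wildtype and EMD -/y as well. The test of the difference from the wildtype change did not call *Tmpo* in +EMD or S54F. In this interval 4 members were called in wildtype (59.0% of all genes), 6 in EMD -/y (57.7%), 6 in +EMD (58.3%), 6 in S54F (58.3%), 6 in Δ95–99 (48.4%) and 8 in Q133H (40.8%). The falls of *Lmnb1* were 3.65-fold in wildtype, 2.22-fold in +EMD and 4.19-fold in S54F, and the falls of *Lbr* 2.06-fold, 2.53-fold and 2.81-fold. All 14 cycling cell genes fell in wildtype, EMD -/y, +EMD, S54F and Q133H, and 13 did in Δ95–99 (medians −3.96, −2.85, −1.52, −3.15, −2.16 and −1.61). Of 10 chromatin genes 7 fell in wildtype and 8 in S54F. Over the 12 day comparisons 69 of 120 member results were called, 14 up and 55 down, and 47 were in the closest-2 fit, beside 40.8% to 60.8% of all genes.

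The difference between the change in a line and the change in wildtype was tested for each interval. Between days 0 and 1 the changes of *Lmnb1*, *Tmpo* and *Banf1* lay above those of wildtype in +EMD and in each mutant line. Between days 1 and 2 the change of *Banf1* lay below that of wildtype in +EMD, Δ95–99 and Q133H. For EMD -/y limma called 0 of 10 members in either interval (0.594% of all genes from day 0 to day 1 and 0.928% from day 1 to day 2), with 1 and 0 at an unadjusted p under 0.05. From day 0 to day 1 the +EMD line had 4 members called (26.6%), S54F 3 (18.4%), Δ95–99 6 (31.4%) and Q133H 7 (43.3%). *Tmpo* differed by 0.66 in +EMD, 0.66 in S54F, 0.69 in Δ95–99 and 0.56 in Q133H. Every fit kept these 4 calls. *Lmnb1* differed by 1.30 in +EMD (adjusted p 4.00e-05) in every fit. In S54F (0.74), Δ95–99 (0.82) and Q133H (0.68) the *Lmnb1* calls ended in the closest-2 fit (0.67, 0.74 and 0.52), and those of S54F and Q133H without wildtype day 1 c (0.59 and 0.53).

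*Banf1* from day 0 to day 1 differed by 0.76 in Δ95–99 and 0.82 in Q133H, and by 0.52 in +EMD and 0.79 in S54F, the last 2 not called in the closest-2 fit (0.46 and 0.73). *Lbr* differed by 0.70 in +EMD, 0.61 in Δ95–99 and 0.50 in Q133H, calls that all ended in the closest-2 fit (0.63, 0.53 and 0.38). The Q133H call of *Lbr* also ended without Q133H b (0.45), wildtype b (0.44) or wildtype c (0.38). *Lmnb2* differed by −1.16 in Q133H, in every fit. The *Lmnb2* call in Δ95–99 (−0.56) ended without Δ95–99 day 0 a (−0.54), Δ95–99 day 1 b (−0.48), Δ95–99 day 1 c (−0.47), wildtype day 0 a (−0.54), wildtype day 0 b (−0.53) or wildtype day 1 a (−0.45), and in the closest-2 fit (−0.49). *Tor1aip1* differed by 0.82 in Q133H and 0.50 in Δ95–99, neither called in the closest-2 fit (0.58 and 0.29), and the latter ended without Δ95–99 day 0 a (0.50), Δ95–99 day 0 b (0.44), Δ95–99 day 1 b (0.43), Δ95–99 day 1 c (0.47), wildtype day 0 a (0.48), wildtype day 0 b (0.48), wildtype day 1 b (0.39) or wildtype day 1 c (0.41). *Lmna* in Q133H (−0.34) ended without Q133H day 0 b (−0.34), Q133H day 0 c (−0.33), Q133H day 1 b (−0.31), Q133H day 1 c (−0.32), wildtype day 0 c (−0.27), wildtype day 1 a (−0.29) or wildtype day 1 c (−0.35), and in the closest-2 fit (−0.38).

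From day 1 to day 2 limma called 0 of 10 members in S54F (6.44% of all genes), with 5 at an unadjusted p under 0.05. It called 3 in +EMD (25.1%), 3 in Δ95–99 (31.6%) and 4 in Q133H (42.8%). *Banf1* differed by −0.79 in Δ95–99, −1.10 in Q133H and −0.63 in +EMD, the last not called in the closest-2 fit (−0.64). *Tmpo* differed by −0.80 in Q133H and by −0.38 in Δ95–99, a call that ended with total-count scaling (−0.28) and in the closest-2 fit (−0.41). *Ankle2* differed by −0.39 in +EMD, −0.31 in Δ95–99 and −0.31 in Q133H, the last 2 not called with total-count scaling (−0.20 and −0.13) or in the closest-2 fit (−0.28 and −0.28). *Lmnb1* differed by 0.72 in +EMD, which ended without wildtype a (0.56) and in the closest-2 fit (0.70). *Tor1aip1* in Q133H (−0.55) ended without Q133H day 1 b (−0.41), Q133H day 1 c (−0.44), wildtype day 1 b (−0.44), wildtype day 1 c (−0.46) or wildtype day 2 b (−0.44), with total-count scaling (−0.37) and in the closest-2 fit (−0.41). Total-count scaling also called *Lmnb2*, *Ankle2* and *Banf1* in S54F.

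Against +EMD, the mutant lines held less *Lmnb2* and *Tmpo* on every day. *Lmnb1* was lower on days 1 and 2. *Lmna* was called higher in 7 of 9 comparisons, 4 of them in the closest-2 fit. In S54F 4, 5 and 8 members were called on days 0, 1 and 2 (31.7%, 32.5% and 43.7% of all genes), in Δ95–99 5, 6 and 6 (26.0%, 30.2% and 39.9%), and in Q133H 6, 7 and 8 (47.2%, 51.2% and 66.7%). *Lmnb2* counts in +EMD were 2917, 3281 and 3797, 4202, 4549 and 5067 and 4346, 4398 and 3813 on the 3 days. The Q133H libraries lay far below them on each day, and S54F and Δ95–99 below them without overlap. *Lmnb2* was lower by −1.16, −2.36 and −2.64 in Q133H, the last 6.24-fold. In S54F it was lower by −0.67, −0.54 and −0.99, with day 1 not called in the closest-2 fit (−0.57). In Δ95–99 it was lower by −1.03 and −0.63 on days 1 and 2, and the day 0 call (−0.43) ended without Δ95–99 c (−0.40) or +EMD c (−0.33) and in the closest-2 fit (−0.49).

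*Lmnb1* was lower than in +EMD by −0.81 and −1.73 in S54F, −0.64 and −0.81 in Δ95–99, and −0.89 and −1.79 in Q133H on days 1 and 2. Of these the Δ95–99 day 1 call ended in the closest-2 fit (−0.63). *Lbr* was lower by −0.58 and −0.73 in S54F on those days and by −0.56 in Q133H on day 1, while in Δ95–99 it was not called on any day. *Lbr* in Q133H on day 0 (−0.36) ended with total-count scaling (−0.31) and in the closest-2 fit (−0.37), and on day 2 (−0.41) it ended without Q133H a (−0.24) and with total-count scaling (−0.19). *Banf1* was lower by −0.66, −0.37 and −0.84 in Q133H, by −0.45 in S54F on day 0 and by −0.54 in Δ95–99 on day 0. In Δ95–99 it was also lower on day 2 (−0.46), though not called in the own-group fit (adjusted p 0.0587), and its day 1 call (−0.30) ended with total-count scaling (−0.26) and in the closest-2 fit (−0.27). *Tmpo* was lower by −0.33, −0.43 and −0.92 in Q133H, and its 6 calls in S54F and Δ95–99 all ended in the closest-2 fit (S54F −0.35, −0.30 and −0.30, Δ95–99 −0.23, −0.21 and −0.32). *Lmna* was higher by 0.76 and 0.35 in Q133H on days 0 and 1, and on day 2 by 0.25, a call that ended without +EMD a (0.24), +EMD c (0.24) or Q133H a (0.08). *Lmna* in S54F was higher on day 0 (0.34), which ended without +EMD c (0.25), and on day 2 (0.36), which ended in the closest-2 fit (0.37). In Δ95–99 its calls on days 0 and 1 (0.32 and 0.34) both ended in the closest-2 fit (0.39 and 0.30), the first also without +EMD c (0.23).

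*Lemd2* was higher than in +EMD by 0.43 in S54F on day 2. On day 1 its calls in S54F (0.28) and Δ95–99 (0.30) ended in the closest-2 fit (0.19 and 0.24). *Ankle2* was higher on day 2 by 0.23 in Q133H and by 0.23 in S54F, the latter not called with total-count scaling (0.13). Its calls in Δ95–99 on days 0 and 2 (−0.19 and 0.18) and in Q133H on day 1 (0.15) ended in the closest-2 fit (−0.18, 0.21 and 0.11). *Lemd3* calls on day 2 in S54F (0.29) and Δ95–99 (0.24) ended there as well (0.29 and 0.24), and those in Q133H on days 0 and 2 (0.30 and 0.23) in the own-group fit (adjusted p 0.0544 and 0.148). The Q133H day 0 call also ended without Q133H a (0.22). That of day 2 ended without Q133H a (0.13), +EMD b (0.17) or +EMD c (0.23).

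+EMD was also set against EMD -/y, the progenitors it was made from. It held more *Lmnb2* and *Lbr* on each day and more *Lmnb1* from day 1. *Lemd2* and *Lmna* were lower on day 2. On day 0, 5 members were called (36.5% of all genes), on day 1 6 (47.6%) and on day 2 7 (46.9%). *Lmnb1* counts were 1748, 1861 and 1672 in +EMD and 441, 388 and 476 in EMD -/y on day 2. The +EMD libraries lay far above, without overlap. *Lmnb1* was higher by 1.30 on day 1 and 2.02 on day 2, *Lmnb2* by 0.67, 0.83 and 1.10, and *Lbr* by 1.13 and 0.85 after 0.42 on day 0, which the closest-2 fit did not call (0.44). *Tmpo* and *Banf1* were higher on day 1 (0.58 and 0.77). *Lmna* (−0.43) and *Lemd2* (−0.44) were lower on day 2. *Lmna* was also called lower on day 0 (−0.26) and *Lemd2* on day 1 (−0.33), calls that ended in the closest-2 fit (−0.27 and −0.23), the first also without +EMD a (−0.25), +EMD c (−0.17), EMD -/y a (−0.22) or EMD -/y c (−0.23). Calls of *Ankle2* (0.20) and *Banf1* (0.35) on day 0 and *Tmpo* (0.26) on day 2 ended in the closest-2 fit too (0.21, 0.37 and 0.31). The *Tmpo* call also ended without EMD -/y b (0.16), and the *Banf1* call without +EMD c (0.25) or EMD -/y c (0.30). *Ankle2* was lower on day 2 (−0.24), though not with total-count scaling (−0.13).

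Genes with the most similar profile over the 18 group means were sought among 12320 genes, as a description only, since the points share lines, days and wildtype libraries. *Lmnb1* ran closest to *Nasp* (r = 0.988) and *Uhrf1* (0.984), and *Lbr* to *Rfc1* (0.986) and *Senp1* (0.986). *Lmna* was closest to *Adat2* (0.917) and *Hspb6* (0.914), *Lmnb2* to *Fgfr4* (0.932) and *Ramp2* (0.931), and *Tmpo* to *Sipa1* (0.937) and *Tubg1* (0.929). *Ankle2* was closest to *Zfyve9* (0.962) and *Mrps9* (0.951), and *Lemd2* to *Pex14* (0.920) and *Borcs5* (0.917). *Lemd3* was closest to *Hpgd* (0.875) and *Cped1* (0.863), and *Tor1aip1* to *Tmem219* (0.912) and *Psmb10* (0.909).

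Some members share bases with another gene, mostly on the other strand, and the strand used in counting was not stated. Exons of *Lbr* overlap those of *Dnah14* by 440 bases, *Banf1* those of *Eif1ad* by 428 and *Tor1aip1* those of *Tor1aip2* by 699. *Lbr* also shares 69 bases with an rRNA gene on its own strand. *Tmpo* overlaps a predicted gene by 244 bases, *Ankle2* by 198 and *Lemd2* by 19. Reads of these bases cannot be assigned with certainty. *Lmna*, *Lmnb1*, *Lmnb2* and *Lemd3* have no such overlap in their exons.

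Promoters of *Lbr* and *Tmpo*, which fell between days in every line in at least 1 interval, each hold 2 CCAAT boxes close to the start. That of *Banf1*, which fell in all lines but S54F, holds an E2F-type site, as does the second start of *Tmpo* at 195 bases. These 3 are printed for those sites. The 250 bases before the RefSeq start were read from the mouse genome (GRCm38, mm10), each on the minus strand and printed 5′ to 3′. *Lbr* (chr1:181842402-181842651) holds CCAAT at 68 and 28 bases before the start and *Tmpo* (chr10:91171620-91171869, first start) at 53 and 21. *Banf1* (chr19:5366877-5367126, first start) holds CCAAT at 185 and the E2F-type site TTTCCCGC at 81 bases. Of 32851 promoters read the same way, 33.8% hold CCAAT and 0.895% the E2F-type site on either strand. CCAAT also lies 131 bases before the second start of *Lmna* and, on the reverse strand as ATTGG, 114 before the only start read of *Lemd3*. The first start of *Lmna* has none, nor do *Lmnb2*, *Tor1aip1* and *Ankle2*, although *Lmna* and *Ankle2* fell in every line. A motif of the cell cycle homology type (TTTGAA or TTCAAA, in 16% of promoters) lies 45 bases before the *Lbr* start. It also lies 28 bases before the second start of *Tmpo*. No site or sequence is given here for *Lmnb1* or *Lemd2*, and whether the sites set apart the genes that fell was not tested. Whether these sites act in progenitors was not tested.

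Lbr: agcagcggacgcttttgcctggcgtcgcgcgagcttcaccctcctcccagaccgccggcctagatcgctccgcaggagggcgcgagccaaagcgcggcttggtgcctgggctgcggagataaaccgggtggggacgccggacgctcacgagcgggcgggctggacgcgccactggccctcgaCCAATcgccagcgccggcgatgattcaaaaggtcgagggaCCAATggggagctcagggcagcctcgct

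Tmpo: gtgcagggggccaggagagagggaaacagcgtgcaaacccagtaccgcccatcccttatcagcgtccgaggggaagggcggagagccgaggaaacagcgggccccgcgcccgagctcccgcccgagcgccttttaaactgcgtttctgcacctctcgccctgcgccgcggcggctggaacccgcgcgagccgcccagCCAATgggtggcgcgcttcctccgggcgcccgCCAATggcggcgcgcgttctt

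Banf1: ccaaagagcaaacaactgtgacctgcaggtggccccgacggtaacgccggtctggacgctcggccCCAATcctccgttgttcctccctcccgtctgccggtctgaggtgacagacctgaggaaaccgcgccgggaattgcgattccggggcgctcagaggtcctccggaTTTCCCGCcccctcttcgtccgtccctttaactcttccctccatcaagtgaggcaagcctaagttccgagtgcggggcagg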

How the data were processed

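RNA was sequenced from 54 libraries, 3 for each of 6 lines on 3 days. The authors' provider filtered reads with SOAPnuke, mapped them to mm10 with HISAT2 and compared groups of libraries with DESeq2. The 27 deposited tables give signal values, 1 value in normalized counts per group of 3 libraries. The 2 values of a gene in a table are not plain group means, because their ratio is the shrunken fold change of that table. The sum of the 2 values of a gene is 2 times the mean of its 6 size-factor-scaled counts. Whole counts of each library were solved from these sums, for 19651 of 19653 genes (99.99%). Of 19647 genes solved with each of the 5 lines separately, 19645 gave the same 9 wildtype counts. Deposited log2 fold change, p-value and Up/Down columns hold the provider's test and were not used.

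Counts were divided by recomputed size factors and, as log2 of the value plus 1, fitted with limma 3.58.1 (trend, R 4.3.3) over the 18 groups for 49 comparisons. Genes needed a mean of 10 in at least 1 group, and Benjamini-Hochberg adjustment covered the 14653 genes of each comparison. The steps for solving and fitting were tested on simulated data. Libraries carry no replicate number. Depth was 16364283 to 19451713 counts, so a count of 10 carries a sampling error of 31.6%. The members and lists were chosen with earlier results of these data known. The 6 lists hold other LEM-domain and inner nuclear membrane genes, lamin processing, lamina disassembly and reassembly, lamina-associated chromatin, muscle-enriched nuclear envelope and cycling cell genes. *Emd* was left out of the first, and *Lemd1* lay below the filter. Alternatives were total-count and upper-quartile scaling, a pseudocount of 5, no filter, voom weights, own-group fits, a 2-fold limit, fits without 1 library and, added after seeing the data, the closest 2 libraries averaged.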

Additional observations from a re-analysis of the deposited data

Results flagged for a closer look

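These results were set apart because the change of a line between 2 days differed from the change of wildtype in the limma test of that difference (adjusted p under 0.05, Benjamini-Hochberg). All lines were set against the same wildtype libraries, and the causes were not tested.

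From day 0 to day 1, *Lmnb1* differed by 1.30 in +EMD, 0.74 in S54F, 0.82 in Δ95–99 and 0.68 in Q133H. *Tmpo* differed by 0.66, 0.66, 0.69 and 0.56 in the same lines, and *Banf1* by 0.52, 0.79, 0.76 and 0.82. *Lbr* differed by 0.70 in +EMD, 0.61 in Δ95–99 and 0.50 in Q133H. *Lmnb2* differed by −0.56 in Δ95–99 and −1.16 in Q133H, *Tor1aip1* by 0.50 and 0.82, and *Lmna* by −0.34 in Q133H.

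From day 1 to day 2, *Banf1* differed by −0.63 in +EMD, −0.79 in Δ95–99 and −1.10 in Q133H, and *Ankle2* by −0.39, −0.31 and −0.31. *Lmnb1* differed by 0.72 in +EMD, *Tmpo* by −0.38 in Δ95–99 and −0.80 in Q133H, and *Tor1aip1* by −0.55 in Q133H.

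Of these 30 calls 22 held in every fit without 1 library and 12 in the fit with the closest 2 libraries averaged. Those of *Lmnb2* and *Tor1aip1* in Δ95–99 and *Lmna* in Q133H from day 0 to day 1 ended without each of 6, 8 and 7 libraries.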

How the results depend on the processing

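Of 243 calls of members over 49 comparisons, 174 held in every fit without 1 library and 69 ended in at least 1, none changing direction. Another 43 member results that were not called became called in at least 1 fit without 1 library. Of 180 group levels 94 moved by more than 1 SD with total-count scaling. Total-count scaling ended 31 calls and added 31, upper-quartile scaling 5 and 8, a pseudocount of 5 0 and 1, no filter 6 and 0, voom weights 1 and 2, own-group fits 46 and 22, and the closest 2 libraries averaged 95 and 0. Direction was lost with total-count scaling for *Lmna* in Q133H against wildtype on day 2 (0.00), *Lemd3* in EMD -/y from day 1 to day 2 (−0.03) and *Lemd3* in S54F from day 1 to day 2 (−0.06). The cause was not tested. Splits between higher and lower genes moved by over 10 percentage points in 19 comparisons with total-count scaling. No paired analysis was possible because the solved libraries carry no replicate number. Fold changes of the tables themselves were not run as an alternative, since those are the provider's own test result. With 16364283 to 19451713 counts per library, no fit at a lower depth was run.

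The counts of members below belong to the alternative named with each and do not replace the main counts above. With a change of at least 2-fold required, 8 of 71 calls against wildtype stayed, 12 of 69 between days, 3 of 30 differences of changes, 6 of 55 against +EMD and 4 of 18 of +EMD against EMD -/y. These were 3 in +EMD on day 1 and 1 each in +EMD on day 2, Δ95–99 on days 1 and 2 and Q133H on days 1 and 2 against wildtype, and 2 in each line from day 1 to day 2. Others were 1 each for the difference of changes in +EMD and Q133H from day 0 to day 1 and in Q133H from day 1 to day 2. Against +EMD they were 1 each for S54F on day 2, Δ95–99 on day 1 and Q133H on days 0 and 1 and 2 for Q133H on day 2, and in +EMD against EMD -/y 2 each on days 1 and 2. In all remaining comparisons 0 stayed.

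With the closest 2 libraries averaged, 43 calls stayed against wildtype, 12 differences of changes and 34 against +EMD. Against wildtype these fits gave 0 in EMD -/y on each day, 1, 3 and 1 in S54F on days 0, 1 and 2, 0 and 2 in Δ95–99 on days 0 and 2, and 3 in Q133H on day 0. From day 0 to day 1 they gave 5 in wildtype, 4 in EMD -/y, 2 in +EMD and 1 in Δ95–99, and from day 1 to day 2 4 in Q133H. Differences of changes were 2 and 1 in +EMD, 1 in S54F from day 0 to day 1, 2 and 1 in Δ95–99, and 3 and 2 in Q133H. Against +EMD the counts were 2 and 5 in S54F on days 1 and 2 and 1, 1 and 3 in Δ95–99, and 1 in +EMD against EMD -/y on day 0. Fewer samples are left in this fit by construction.

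Own-group fits gave 0, 0 and 1 in EMD -/y against wildtype, 4 in S54F against wildtype on day 0, 3 and 5 in Q133H between days, 2 for the S54F difference of changes from day 1 to day 2 and 5 in Q133H against +EMD on day 2. Total-count scaling gave 3 for that S54F difference, 2 for the Q133H difference from day 1 to day 2 and 3 for Δ95–99 against +EMD on day 0, where upper-quartile scaling gave 3 too.

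Without 1 library, counts ran from 0 to 2 in EMD -/y against wildtype on days 0 and 1, 1 to 3 on day 2, and 0 to 4 and 2 to 4 in Δ95–99 on days 0 and 2. Between days they ran from 3 to 5 in S54F and 1 to 2 in Δ95–99 from day 0 to day 1, and 3 to 6 and 5 to 9 in Q133H. Differences of changes ran from 3 to 5 in +EMD and 0 to 3 in S54F from day 1 to day 2, 2 to 5 in S54F from day 0 to day 1, 3 to 7 in Δ95–99 from day 1 to day 2 and 4 to 7 in Q133H from day 0 to day 1. Against +EMD they ran from 1 to 5 and 3 to 6 in Δ95–99 on days 0 and 1 and 5 to 8 in Q133H on day 2, and in +EMD against EMD -/y from 3 to 6 on day 0.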
